A study of Drosophila melanogaster with 2 samples.

Results

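The peaks described here are those on chromosome 4, the fourth chromosome of Drosophila melanogaster, 495 of the 30000 peaks that the authors called on both replicates together (the pooled list). All pooled peaks whose chromosome is 4 were taken, whatever their signal, and each was placed by its summit, the position of strongest signal that the authors gave for it. They were compared with the 29505 pooled peaks on arms X, 2L, 2R, 3L and 3R (the other arms). The peaks come from chromatin immunoprecipitation and sequencing (ChIP-seq) of a GFP-tagged protein, CG7271, in whole embryos collected at 0 to 4 hours. Both libraries, biological replicates 2 and 3, were made from a transgenic fly line that stably expresses CG7271 with GFP fused to its C terminus, and they form 1 group with no treated or untreated counterpart. The labels do not give the promoter that drives the fusion gene, the 2 biosamples come from the same line, and whole embryos mix all cell types, so a peak cannot be assigned to a tissue. Per the description in the labels the precipitation used an anti-GFP antibody, while the antibody label names CG7271. Each replicate also has its own list of 30000 peaks, of which 476 in replicate 2 and 503 in replicate 3 lay on chromosome 4. A last list holds the 2445 peaks that passed the authors' irreproducible discovery rate (IDR) threshold, which keeps peaks ranked alike in both replicates, and 16 of these lay on chromosome 4.

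Chromosome 4 is the smallest chromosome of the fly, known as the dot chromosome. Its banded arm carries heterochromatin proteins such as HP1a over most of its length and is rich in transposable elements, yet its genes are transcribed, and a chromosome-specific protein, POF, binds them. Its best known genes include ci, the transcription factor of Hedgehog signalling, pan, the TCF factor of Wnt signalling, and the Pax6 genes ey and toy. In dm6 it is 1.35 Mb long and has a GC content of 35.2%, against 42.2% on the other arms. Annotated transposable elements cover 24.8% of it, against 5.74% elsewhere. It holds 80 protein-coding genes, or 59.3 per Mb against 104.6 per Mb.

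Summit sequences are shown for 6 of the 16 IDR peaks, to let the base composition and the motifs discussed further on be seen in the DNA itself. Each is the 101 bases centred on the summit, read 5′ to 3′ on the plus strand of the RefSeq copy of dm6. Capitals mark matches, on either strand, to TATAAA, a core promoter element, to GAGAG and to CGATA. The first window, chr4:497857-497957, is the summit of the strongest peak on the chromosome, upstream of zfh2, and the second, chr4:424790-424890, lies beside lncRNA:CR43437. The third, chr4:660085-660185, lies at a start site of gw. The next, chr4:404461-404561, is an intergenic summit upstream of mir-9385 with a TATAAA match. The last pair have the lowest and the highest GC content among the 16, 17.8% at CaMKII (chr4:1054053-1054153) and 43.6% at toy (chr4:989538-989638).
zfh2 upstream: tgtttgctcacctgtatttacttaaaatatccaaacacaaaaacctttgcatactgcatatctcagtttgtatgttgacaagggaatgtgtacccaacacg
lncRNA:CR43437 upstream: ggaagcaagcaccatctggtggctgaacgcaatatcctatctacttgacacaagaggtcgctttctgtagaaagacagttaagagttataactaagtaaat
gw promoter: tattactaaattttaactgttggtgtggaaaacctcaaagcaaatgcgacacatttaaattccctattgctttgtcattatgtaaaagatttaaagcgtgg
mir-9385 upstream: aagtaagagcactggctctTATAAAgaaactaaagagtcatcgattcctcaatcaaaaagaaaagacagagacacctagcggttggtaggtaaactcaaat
CaMKII promoter: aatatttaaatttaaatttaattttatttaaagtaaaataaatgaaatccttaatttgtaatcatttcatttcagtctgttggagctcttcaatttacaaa
toy promoter: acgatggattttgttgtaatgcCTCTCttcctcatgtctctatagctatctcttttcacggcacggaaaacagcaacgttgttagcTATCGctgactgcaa

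Peaks were denser on chromosome 4 than on any of the 5 other arms. The pooled list held 367 summits per Mb there (exact Poisson 95% interval 336 to 401), against 223 per Mb over the other arms, whose densest arm was 2L with 249. The replicate 2 list gave 353 per Mb (322 to 386) and the replicate 3 list 373 per Mb (341 to 407), so the higher density was found in both replicates. No mappability track, control signal or read counts were used here, so the part of read mapping and local copy number in the density was not tested. The ratio of densities, chromosome 4 over other arms, was 1.65 (exact 95% interval 1.51 to 1.80) in the pooled list, and 1.90 (1.73 to 2.09) when transposable elements were left out of both lengths and summits. The other arms were also divided into 95 stretches as long as chromosome 4, whose median was 326 pooled peaks; 2 of them held 495 or more.

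The excess was not seen among the strongest peaks. The ratio was 1.82 (1.60 to 2.05) among the 15000 pooled peaks of lowest signal and 1.48 (1.29 to 1.69) among the 15000 of highest signal. Among the 3000 pooled peaks of highest signal, 19 lay on chromosome 4, a density 0.627 times that of the other arms (exact 95% interval 0.377 to 0.980). IDR peaks had a density of 11.9 per Mb (6.78 to 19.3), against 18.3 per Mb elsewhere and 14.5 to 22.0 per Mb on the single arms. That interval reaches the densities of the other arms, and the ratio of 0.648 has an interval of 0.370 to 1.05, so a lower density of IDR peaks was not established. Of the 95 stretches of equal length, 23 held 16 IDR peaks or fewer.

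**Figure D1:**
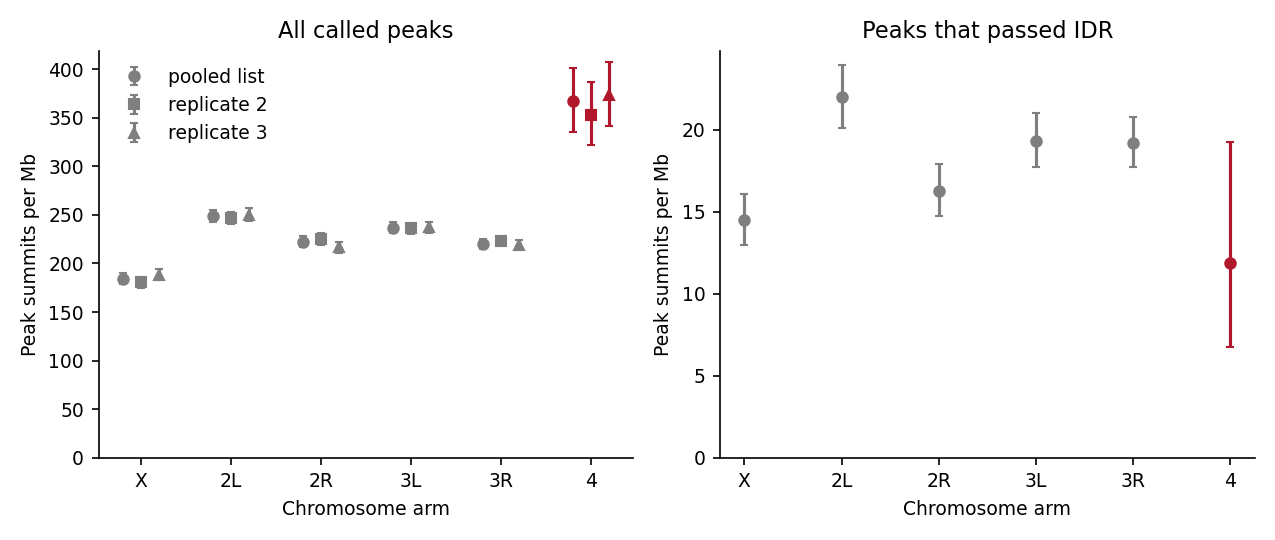
Peak summits per Mb of each chromosome arm, for all called peaks in the pooled, replicate 2 and replicate 3 lists (left) and for the peaks that passed IDR (right), with exact Poisson 95% intervals that cover counting error only. Chromosome 4, in red, stands above the 5 other arms on the left (367 per Mb pooled) and has the lowest value, with a wide interval, on the right (11.9 per Mb).

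The 495 peaks were spread along the chromosome up to its last 80910 bp, which held none. Summits ran from position 1632 to 1267221. In bins of 100 kb the count ranged from 15 to 56, highest in the bin from 400001 to 500000, which also held 4 IDR peaks, and next at 53 from 1100001 to 1200000. The bin from 1 to 100000, where ci, RpS3A and pan lie, held 38 peaks and 4 IDR peaks. Neighbouring summits were a median of 1408 bp apart (quartiles 776 and 3265 bp), against 1921 bp on the other arms, and 19 gaps were over 10 kb.

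Signal was compared by rank within a list, rank 1 being the highest, because the scale of the authors' signal is not stated. Chromosome 4 peaks had pooled signals from 37.7 to 479 with a median of 49.4, and a median rank of 16353 (exact 95% interval 15096 to 17432). On the other arms the median rank was 14976 (14802 to 15148). In the replicate lists the intervals held the median of the other arms. The median rank was 15100.5 (13951 to 16402) in replicate 2, against 14997.5 elsewhere, and 14620 (13385 to 16142) in replicate 3, against 15011.5. In the pooled list 45.1% of chromosome 4 peaks and 50.1% of the others ranked 15000 or higher, a difference of -5.03 percentage points (Newcombe 95% interval -9.40 to -0.591). The same difference was -0.640 points (-5.14 to 3.87) in replicate 2 and 2.12 points (-2.28 to 6.49) in replicate 3. The lower share thus did not hold in either replicate list taken alone.

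At the top of the lists the share of chromosome 4 peaks was lower in the pooled list and in both replicates. Over all arms 8.15% of the 30000 pooled peaks were IDR peaks, and 16 of the 495 on chromosome 4 were, or 3.23% (exact 95% interval 1.86 to 5.20%). On the other arms 2429 of 29505 were, or 8.23%, which makes a difference of -5.00 points (Newcombe 95% interval -6.27 to -3.02). The IDR peaks are exactly the 2445 pooled peaks of highest signal, so this share is a share above a signal rank. Taking the 2445 highest peaks of each replicate list instead gave 22 of 476 chromosome 4 peaks in replicate 2 (4.62% against 8.21%, difference -3.59 points, -5.17 to -1.29) and 14 of 503 in replicate 3 (2.78% against 8.24%, -5.46 points, -6.62 to -3.60). Of the 95 stretches of equal length, 9 also had an IDR share of 3.23% or lower, and the median was 7.81%. All 9 were among the 12 stretches at least as soft-masked (repeat-marked) as chromosome 4, which held 2 to 225 pooled peaks each and had IDR shares from 0 to 5.36%, a subset chosen after the values were seen. The part of soft-masking in the low share was not tested. The member just inside the IDR list was the toy promoter peak at pooled rank 2306. Just outside it were an intergenic summit near mir-9385 at rank 2472 and a summit shared by the starts of ATPsynbeta and CG11076 at rank 2498.

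Fewer chromosome 4 peaks than other peaks were found again in both replicate lists at once, while the differences for each list alone had intervals that include 0. A summit of replicate 2 lay within 100 bp of 329 pooled summits (66.5%, against 70.0% on the other arms; difference -3.56 points, -7.86 to 0.495). A summit of replicate 3 lay within 100 bp of 264 (53.3% against 55.4%; -2.06 points, -6.50 to 2.33). Over all arms 36.4% of pooled peaks had a summit in both lists. Of chromosome 4 peaks, 145 did, or 29.3% (25.3 to 33.5%), against 36.5% on the other arms, a difference of -7.24 points (-11.1 to -3.05).

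The lower share in both lists depended on how peaks were matched and on rank. Standardised to the rank distribution of chromosome 4 peaks, the difference was -2.53 points, with an interval of -6.39 to 1.65 that includes 0. With any overlap of the peak intervals counted as shared it was -0.841 points (-5.28 to 3.54), and among peaks ranked 15000 or higher it was -10.03 points (-16.6 to -3.57). The value of -10.03 points was not standardised to rank. On the other arms recovery was 94.7% at ranks 1 to 3000 and 34.8% at ranks 12001 to 15000. Chromosome 4 had 19 peaks in the first of these ranges and 60 in the second. The part of rank in the -10.03 points was not tested. Peaks found in replicate 3 only made up 24.0% of chromosome 4 peaks and 18.9% of the others (5.18 points, 1.59 to 9.16), and peaks found in replicate 2 only 37.2% and 33.5% (3.68 points, -0.496 to 8.06). With summits denser there, 7.10% of chromosome 4 bases lay within 100 bp of a replicate 2 summit and 7.50% within 100 bp of a replicate 3 summit, against 4.48% and 4.47% elsewhere. The part of this density in the recovery shares was not tested. Peaks found in neither list made up 9.49% of chromosome 4 peaks and 11.1% of the others (-1.62 points, -3.93 to 1.31). Of these 47 peaks on chromosome 4, the highest was an intronic summit of CaMKII, the calcium/calmodulin-dependent kinase gene (chr4:1051986-1052365, signal 70.1, rank 7310). Its nearest replicate summits were 127 and 132 bp away. Next came a summit in an exon of lncRNA:CR46488 (rank 10904), at 127 and 106 bp.

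**Figure D2:**
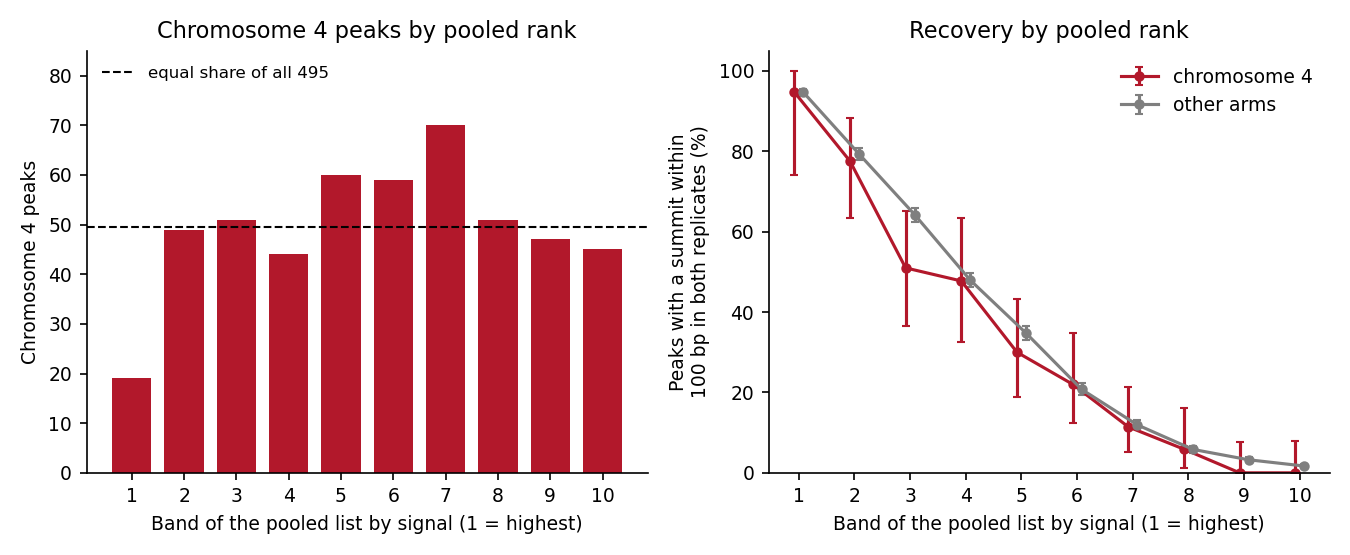
Left, the number of chromosome 4 peaks in each of 10 bands of the pooled list by signal, band 1 being the highest (bars), with the count an equal share would give (dashed line). Right, the percentage of pooled peaks with a summit within 100 bp in both replicate lists, by the same bands, for chromosome 4 and the other arms, with exact 95% intervals. Band 1 holds 19 chromosome 4 peaks and band 7 holds 70. Recovery falls from 94.7% to 0% on chromosome 4 and from 94.7% to 1.69% on the other arms, with overlapping intervals in all 10 bands.

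All 16 IDR peaks of chromosome 4 had a summit within 100 bp in both replicate lists. The selection by IDR largely fixes this in advance, so it is no separate support for them. Among the 3000 pooled peaks of highest signal, 94.7% of those on the other arms had a summit in both lists. The strongest, chr4:497799-498045, was an intergenic peak 3903 bp upstream of the nearest start of zfh2, which encodes a zinc finger homeodomain transcription factor. Its signal was 479 in the pooled list, 295 in replicate 2 and 179 in replicate 3, which ranked it 80, 62 and 125. The next, chr4:67132-67336, had its summit 18 bp upstream of RpS3A, a ribosomal protein gene of the small subunit, with signals of 379, 205 and 184 and ranks of 163, 203 and 110. These 2 peaks stood among the highest of every list, and both were narrower (247 and 205 bp) than the 380 bp of the other 14.

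Promoters held 9 of the 16, a promoter peak being one with its summit within 500 bp of an annotated transcription start site (TSS). On the other arms promoters held 1270 of 2429 IDR peaks, and the other 1159 were distal. After RpS3A came gw, which encodes the GW182 protein of microRNA silencing (chr4:659945-660324, pooled rank 782, replicate ranks 794 and 1068). The summit at ci and its antisense RNA gene asRNA:CR43957 followed (chr4:56250-56629, rank 949; 1173 and 761). The semaphorin receptor genes PlexA and PlexB had summits 203 bp upstream (chr4:1027114-1027493, rank 1353; 1484 and 2210) and 84 bp downstream of a TSS (chr4:43504-43883, rank 1967; 2804 and 2475), both in soft-masked (repeat-marked) sequence. CG31999 ranked 1373 (chr4:225809-226188; 1568 and 1223) and pan 1719, with its summit 34 bp upstream (chr4:69102-69481; 1479 and 1426). The 2 promoter peaks left were at CaMKII (chr4:1053913-1054292) and at toy (chr4:989398-989777). CaMKII ranked 1918 in the pooled list, 1218 in replicate 2 and 4573 in replicate 3, so it stood below the 2445 highest peaks in replicate 3. toy ranked 2306, 2603 and 2802.

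The 7 distal IDR peaks were 5 intergenic peaks, 1 in a 3′ UTR and 1 in a coding exon. Besides the zfh2 peak, those described lay 1227 bp upstream of lncRNA:CR43437 (chr4:424650-425029, rank 403; 419 and 355), 3746 bp upstream of mir-9385 (chr4:404321-404700, rank 1486; 1488 and 1079), and 742 bp upstream of Sox102F (chr4:834945-835324, rank 2300). Sox102F encodes a SoxD family transcription factor. Its peak ranked 9251 in replicate 2 and 3914 in replicate 3, so it stood below the 2445 highest peaks in both replicate lists. The peak in a 3′ UTR (chr4:1113110-1113489, rank 365; 312 and 507) fell where Cals, the calsyntenin gene, and sv, a Pax2 gene, overlap, and cannot be assigned to either. The peak in a coding exon of mGluR, the metabotropic glutamate receptor gene, ranked 1681 (chr4:942794-943173; 2922 and 936).

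**Figure D3:**
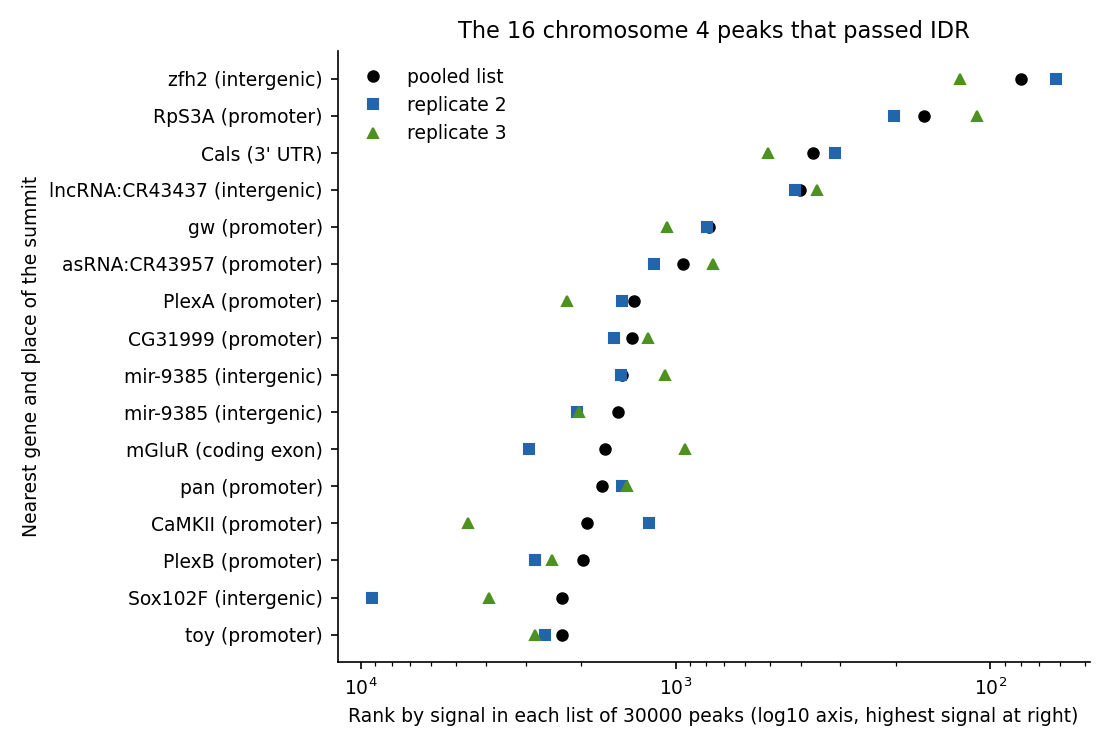
Rank by signal of the 16 chromosome 4 peaks that passed IDR in the pooled, replicate 2 and replicate 3 lists of 30000 peaks each (log10 axis, highest signal at right), labelled by nearest gene and place. The peak near zfh2 ranks 80, 62 and 125, and the Sox102F peak ranks 2300, 9251 and 3914.

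No intronic peak of chromosome 4 passed IDR. Introns held 180 of the 495 peaks, the largest place, and 0 of these 180 were IDR peaks, which allows a share of up to 1.67% by the rule of 3 counts of the total and up to 2.03% by the exact 95% interval. On the other arms 715 of 11145 intronic peaks passed, or 6.42%, a difference of -6.42 points (Newcombe 95% interval -6.89 to -4.28). This comparison was chosen after the values were seen. Among the 2445 highest peaks of each replicate list there was 1 of 168 chromosome 4 intronic peaks in replicate 2 (0.595% against 6.31%) and 1 of 187 in replicate 3 (0.535% against 6.45%). The highest intronic summit in the pooled list lay in Gat, a GABA transporter gene, at rank 2942, and 68 of the 180 ranked 15000 or higher. Of the intergenic peaks 5 of 87 passed (5.75%), against 5.91% elsewhere, with a wide interval on the difference (-0.158 points, -3.49 to 6.88). Promoter peaks passed in 9 of 117 cases (7.69%) against 14.2% (-6.48 points, -10.2 to -0.163).

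By place, chromosome 4 had fewer of its peaks at promoters and more in coding exons and transposable elements. Promoters held 117 peaks (23.6% against 30.4%; difference -6.72 points, -10.3 to -2.75), on 10.7% of the bases of chromosome 4 and 13.6% of those of the other arms. Of the 95 stretches of equal length, which held 2 to 544 pooled peaks each, 12 also had a promoter share of 23.6% or lower. Their median was 30.1%, so a promoter share this low was also found on the other arms. Coding exons away from promoters held 66 (13.3% against 5.51%; 7.83 points, 5.10 to 11.1), on 18.9% and 13.8% of the bases. Introns held 36.4% and 37.8% (-1.41 points, -5.56 to 2.95), intergenic sequence 17.6% and 20.1% (-2.57 points, -5.70 to 1.06), and 3′ UTRs 6.26% and 4.27% (1.99 points, 0.158 to 4.49). Promoter and coding exon differences kept their sign, with intervals clear of 0, in each replicate list. Among peaks ranked 15000 or higher the promoter difference was -4.83 points, with an interval of -10.8 to 1.69 that includes 0. Set against the bases that promoters cover, the share of summits was 2.20 times the share of bases on chromosome 4 and 2.24 times on the other arms.

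Per Mb of each place, summits were denser on chromosome 4 in each of the 5 largest places. At promoters there were 808 per Mb against 498 (ratio 1.62, exact 95% interval 1.34 to 1.95). In coding exons there were 259 per Mb against 88.6 (ratio 2.92, 2.25 to 3.74), with ratios of 2.82 in replicate 2 and 2.95 in replicate 3. Intergenic sequence had a ratio of 2.16 (1.73 to 2.67), 3′ UTRs 1.49 (1.01 to 2.12) and introns 1.47 (1.26 to 1.70). Of these 5, only the 3′ UTR ratio had an interval that reached below 1 in a replicate list (1.46, 0.984 to 2.10, in replicate 2).

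**Figure D4:**
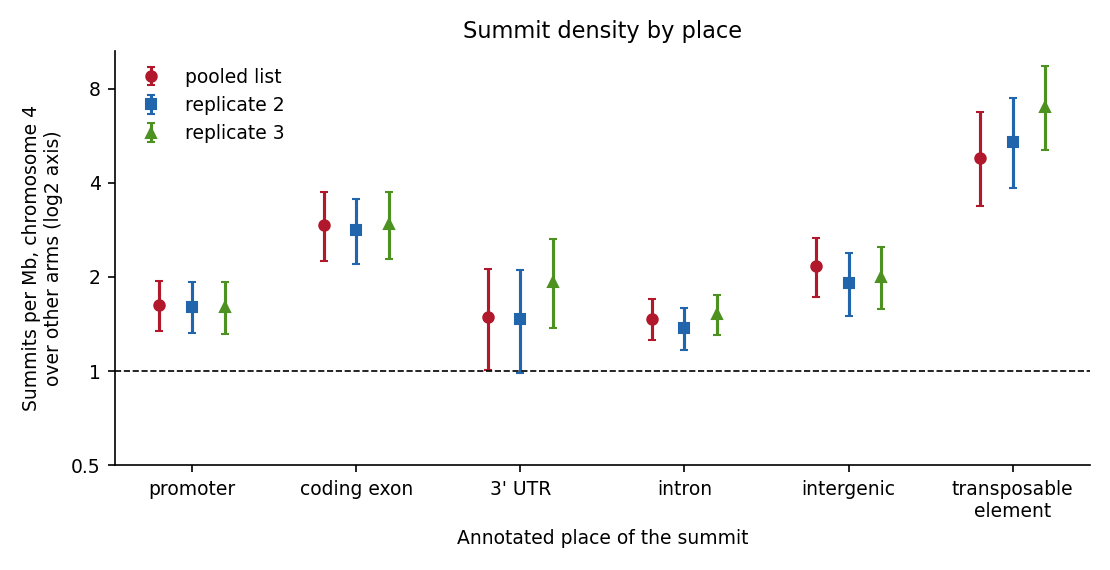
Ratio of summit density per Mb, chromosome 4 over the other arms, by annotated place, in the pooled, replicate 2 and replicate 3 lists (log2 axis; bars are exact 95% intervals that cover counting error only; the dashed line marks equal density). The 6 places shown are promoters, coding exons, 3′ UTRs, introns, intergenic sequence and transposable elements, and their ratios lie above 1, from 1.37 for introns in replicate 2 to 6.98 for transposable elements in replicate 3.

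Of the large places on chromosome 4, promoters had the strongest peaks by median rank and the largest share found in both replicate lists. The median rank was 10702 (8214 to 12611) at promoters, against 9884.5 at promoters of the other arms. Promoter summits had a median position of -43 bp relative to the TSS, against -32 bp elsewhere, and 60.7% of them were upstream, against 59.2% (1.48 points, -7.63 to 9.92). The median rank was 15909 (13593 to 17716) in intergenic sequence and 17554 (16085 to 19144) in introns. It was 18578 (15576 to 20652) in 3′ UTRs and 19308 (15487 to 21811) in coding exons. The intervals of these distal places overlap, so no order among them was established. On the other arms the median rank was 16529.5 in intergenic sequence, 16211 in introns, 18836 in 3′ UTRs and 20711 in coding exons. Of these 4, introns alone had a higher-ranked median on the other arms than on chromosome 4. Summits were found in both replicate lists for 45 of 117 promoter peaks (38.5%, against 47.5% elsewhere) and for 12 of 66 coding exon peaks (18.2%), and elsewhere for 325 of 1625. On chromosome 4 the share was 28.3% in introns, 28.7% in intergenic sequence and 29.0% in 3′ UTRs. On the other arms it was 33.8%, 32.4% and 23.9%, so 3′ UTRs went the other way. The coding exon peaks were spread over many genes. CG33978 held 7 and bt 6; CG1674, PMCA, RhoGAP102A and unc-13 held 3 each. bt encodes projectin, a giant muscle protein, PMCA a plasma membrane calcium pump, and unc-13 a protein that primes synaptic vesicles.

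Transposable elements held 42 of the 495 peaks, or 8.48%, against 0.674% on the other arms (7.81 points, 5.66 to 10.6). They cover more of chromosome 4, but their density of summits was also higher, at 126 per Mb of element against 26.2 (ratio 4.81, exact 95% interval 3.36 to 6.73; 5.41 in replicate 2 and 6.98 in replicate 3). Within chromosome 4 they were poorer in summits than the rest, which had 447 per Mb. None of the 42 passed IDR, which allows a share of up to 7.14% by the same rule of 3 counts and up to 8.41% by the exact 95% interval. On the other arms 1 of 199 passed (0.503%), and the difference of -0.503 points (-2.79 to 7.89) has an interval that includes 0. The highest of the 42 ranked 5105, and 11 (26.2%) had a summit in both replicate lists, against 40 of 199 (20.1%) elsewhere. Soft-masked sequence as a whole held 22.0% of summits on 27.8% of the bases, against 18.3% of summits on 20.03% of the bases elsewhere (3.67 points, 0.215 to 7.55). Among peaks ranked 15000 or higher that difference was 0.229 points (-4.56 to 6.02).

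INE-1, a short non-autonomous element that is abundant on this chromosome, held 24 of the 42 summits. Its 344 copies span 97346 bases, and it held 24 summits in replicate 2 and 35 in replicate 3. The DNA transposon 1360 had 8, 8 and 6 summits in the pooled, replicate 2 and replicate 3 lists on 60 copies, and Cr1a had 4, 4 and 3 on 17 copies. HeT-A, a telomeric retrotransposon with 44256 bases on this chromosome, had none in any of the 3 lists. How reads that match several copies were placed is not given in the sources used here, and its part in these counts was not tested.

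Most protein-coding genes of chromosome 4 had a peak at a promoter. In the pooled list 66 of 80 did (82.5%, exact 95% interval 72.4 to 90.1%), against 54.0% of 13865 genes on the other arms, a difference of 28.5 points (Newcombe 95% interval 18.7 to 35.3). The count was 64 in replicate 2 and 69 in replicate 3, and 59 genes had a promoter summit in both. Chromosome 4 genes have more annotated start sites, 1.775 per gene against 1.40, and counted per start site the difference was 23.6 points (15.9 to 30.0). With IDR peaks only, 9 of 80 genes (11.2%) and 12.0% elsewhere had a promoter peak, and the difference of -0.788 points (-6.03 to 7.997) has an interval that includes 0. Summits lay within the bounds of 72 of the 80 genes, a count for which no share on the other arms was computed. pan held 22 on 44.9 kb, bt 17 on 52.1 kb, sv 17 on 24.5 kb and unc-13 16 on 44.5 kb. These counts were not adjusted for gene length, so they do not rank genes by summit density.

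Groups of chromosome 4 genes are given by role, each count to be read against the 66 of 80 of all its coding genes. Among 12 transcription factor genes, 10 had a pooled promoter summit, 9 had one in both replicates and 3 had an IDR peak. The highest were ci, pan, toy and Sox102F, the last at rank 3214 (2162 in replicate 2 and 3685 in replicate 3). The 2 without were onecut, a homeodomain gene that had promoter summits in replicate 2 (rank 6084) and replicate 3 (rank 9638), and fd102C, a forkhead gene with none in any of the lists.

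All 4 genes of chromatin and the transcription machinery had a promoter summit in the pooled list and in both replicates, none of them an IDR peak. They were MED26, a Mediator subunit gene (rank 5787), pho, which encodes a DNA-binding Polycomb group protein (8815), Hcf, the host cell factor gene (19557), and Taf3, a TFIID subunit gene (27900). In the replicate lists the highest promoter summits of the last pair need not match the pooled summits. They ranked 3573 for Hcf and 5851 for Taf3 in replicate 3, and 16993 and 16488 in replicate 2. The pooled Hcf summit matched a replicate 2 summit at rank 17522 and had no replicate 3 summit within 100 bp.

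Of 13 signalling genes 12 had a pooled promoter summit, 11 had one in both replicates and 3 an IDR peak. The highest after PlexA, CaMKII and PlexB was Zyx, the zyxin gene, whose summit at rank 4652 is shared with apolpp. The gene without one was myo, which encodes a TGF-beta family ligand and had promoter summits in replicate 2 (rank 8652) and replicate 3 (rank 17064).

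Among 8 genes of basic cell functions 7 had a pooled promoter summit, 6 in both replicates and 2 an IDR peak. RpS3A and gw were followed by ATPsynbeta, the beta subunit gene of ATP synthase (rank 2498), and eIF4G1, a translation initiation factor gene (3096). Pur-alpha, which encodes a nucleic acid binding protein, had none in the pooled list and 1 in each replicate list, at rank 13951 in replicate 2 and 6893 in replicate 3.

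Of 6 neuronal and synaptic genes 5 had a pooled promoter summit, 3 had one in both replicates and none had an IDR peak at its promoter. The highest were Cadps, a gene of dense-core vesicle release (rank 3015, a summit shared with Dyrk3), Syt7, a synaptotagmin gene (5990), Ekar, a kainate-type glutamate receptor gene (8301), and unc-13 (10702). Gat had none in any list. Of 6 muscle, membrane and transport genes 5 had one, 3 in both replicates: apolpp, which encodes the apolipophorin of fly lipoproteins (4652), bt (7881), PMCA (11498) and Ank, an ankyrin gene (17041), were the highest, and yellow-h had none in any list. The groups were not tested against each other.

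Base composition around the summits differed between chromosome 4 and the other arms. Chromosome 4 summit windows had a GC content of 34.9% ± 8.19 (SD, n = 495 windows), close to that of windows 500 bp to either side, 33.7% ± 6.15. The summit was 1.20 points ± 9.26 above its flanks. On the other arms summits were at 39.9% ± 10.4 and flanks at 42.1% ± 7.70 (n = 29505), and the mean of summit minus flank was -2.26 points ± 13.1. The difference between these 2 differences was 3.45 points (95% interval from the standard errors 2.62 to 4.28). Windows of one chromosome are neighbours and not independent, and the interval covers the spread between windows only.

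For the IDR peaks the flanks differed between chromosome 4 and the other arms, while the interval for the summits includes 0. The 16 chromosome 4 summits had a GC content of 33.7% ± 6.94 and the 2429 others 34.9% ± 10.7, a difference of -1.24 points (-4.95 to 2.48). Their flanks were at 32.2% ± 5.54 and 43.2% ± 7.99, a difference of -11.0 points (-14.0 to -8.04). For pooled peaks outside the IDR list the flank difference was -8.28 points (-8.84 to -7.71), so a lower flank was not particular to the IDR peaks. The GC content of the whole arms was 35.2% and 42.2%, and its part in the flank difference was not tested. Summit minus flank was -8.35 points ± 14.3 for the IDR peaks of the other arms and 1.42 points ± 9.13 for those of chromosome 4, a difference of 9.77 points (4.88 to 14.7).

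**Figure D5:**
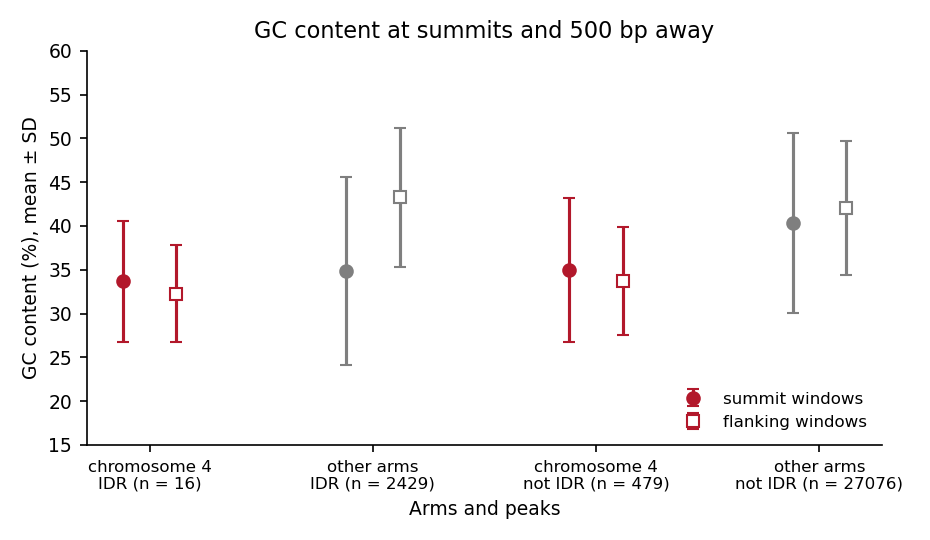
Mean GC content (%, bars show the SD over windows) of the 101 bases around peak summits (filled) and of windows centred 500 bp to either side (open), for IDR peaks and all other pooled peaks on chromosome 4 and on the other arms. Summit values of the IDR peaks lie close together (33.7% and 34.9%), while flanks on the other arms are higher (43.2%) than those on chromosome 4 (32.2%).

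Known motifs were sought within 50 bp of the summits on both strands, beside the flanks and beside all windows of the same length on the same arms. TATAAA was found in 25.1% of chromosome 4 summit windows (exact 95% interval 21.3 to 29.1%), in 25.3% of their flanks and in 21.8% of all chromosome 4 windows. On the other arms it was in 15.1% of summit windows, 12.0% of flanks and 11.6% of all windows. At chromosome 4 summits its share differed from that of the flanks by less than the counting interval. CGATA was in 18.4% of chromosome 4 summit windows (15.1 to 22.1%), 13.8% of flanks and 13.3% of all windows, and on the other arms in 13.6%, 11.6% and 11.3%.

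TATCGATA, the element bound by DREF, which contains CGATA, was in 9 chromosome 4 summit windows (1.82%, 0.835 to 3.42%), against 1.01% of flanks and 0.896% of all windows there. On the other arms it was in 1.09% of summit windows and 0.271% of flanks. GGTCACAC, part of the site of the promoter factor M1BP, was in 2 chromosome 4 summit windows (0.404%, 0.049 to 1.45%). It was in 0.101% of flanks and 0.152% of all windows there. On the other arms GGTCACAC was in 0.973% of summit windows and 0.222% of flanks. GAGAG, bound by the GAGA factor, was in 8.89% of summit windows, 7.47% of flanks and 9.25% of all windows of chromosome 4. CAGGTA, bound by the early embryonic factor Zelda, was in 4.24%, 3.13% and 3.42%. CACGTG, an E-box, was in 0.606%, 0.808% and 0.668%, and AAAAAAA in 13.9%, 13.8% and 12.5%. On the other arms, in the same order, GAGAG was in 11.9%, 12.0% and 11.5% and CAGGTA in 2.66%, 2.42% and 2.28%. CACGTG was there in 1.22%, 1.22% and 1.17%, and AAAAAAA in 10.2%, 9.55% and 8.65%. Among the 16 IDR windows TATAAA was in 4, CGATA in 3, GAGAG in 2 and AAAAAAA in 1, and the other 4 motifs in none. In the 2429 IDR windows of the other arms these were in 22.6%, 14.8%, 10.5% and 11.8%, in that order. TATCGATA was there in 2.22%, GGTCACAC in 1.61%, CAGGTA in 2.10% and CACGTG in 1.03%. The exact intervals for the 16 windows hold all of these shares, so no difference was established. They ran from 7.27 to 52.4% for TATAAA and up to 20.6% for a count of 0. A match is a description of the sequence and not a binding site.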

How the data were processed

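Peak lists of ChIP-seq for GFP-tagged CG7271 (biological replicates 2 and 3, from separate biosamples) were used as deposited, on dm6. Per the deposited notes, the replicate lists and the pooled list had been called against a control alignment. That control was not analysed here. Which caller and aligner were used is not given in the sources used here, nor is the IDR cut-off. The signal values of the authors have no stated scale and served for ranks and description. The deposited −log10 q-values, with 2493 pooled peaks at their ceiling of 3.70, were not used. Read depth is unknown, and intervals cover counting error only.

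Genes and transposable elements came from Ensembl release 115 on the same assembly, and sequence and soft-masking from RefSeq. Summits within 500 bp of any 5′ end of a non-transposon gene were promoter summits. The rest were assigned to exons, UTRs, introns or intergenic sequence, with transposable elements counted apart from these places. Shares have exact (Clopper-Pearson) 95% intervals, their differences Newcombe intervals and density ratios exact conditional intervals. No p-value is given, since peaks and genes are not replicates. The same measure in each replicate list is the replicate check. Recovery was also standardised to 10 rank bands. The intervals and distance search were tested on simulated data. Python 3.11.15, NumPy 2.4.6, pandas 2.3.3, SciPy 1.17.1 and matplotlib 3.10.9 were used.

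The peaks, 6 gene lists and 8 motifs were chosen with earlier results of these data known. Genes named are the nearest genes of chromosome 4 IDR peaks, up to 4 members of each list with the highest promoter signal, members without a promoter summit, and the 2 highest peaks found in neither replicate list. Genes with the most summits, the peaks just below the IDR list and the highest intronic peak were named after their values were seen. The sequence and place of 1 intergenic IDR peak are not reported here. Of the 8 neuronal symbols, 2 were older names of other members, which left 6 genes. Alternatives were other TSS and summit distances, peaks ranked 15000 or higher, autosomal arms, length that is not soft-masked, and each replicate list alone. Those by place or repeat, on IDR peaks, on coding exons, per start site, and on the 3000 highest and 15000 lowest peaks were added after seeing the data.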

Additional observations from a re-analysis of the deposited data

How the results depend on the processing

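Of 71 alternative settings 48 kept the direction of the difference and the same side of the interval (clear of 0, or of 1 for density), 3 of GC content, which have no interval, kept the direction and moved by less than 1 SD over windows, 8 kept the direction but lost the interval, 1 gained it and 11 changed direction. The cause of each change was not tested, also where fewer peaks remained by construction. The density ratio of 1.65 became 0.648 with IDR peaks only and 0.627 with the 3000 highest peaks. With 1 replicate list it ranged from 1.58 to 1.68. Of the recovery differences, that in replicate 3 (-2.06 points) became 0.724 within 250 bp, 2.08 by any overlap, 1.15 when standardised to rank and -7.21 among peaks ranked 15000 or higher. That in both lists (-7.24) became -2.23 within 250 bp, -0.841 by any overlap and -2.53 when standardised. The share ranked 15000 or higher (-5.03) was 2.12 without replicate 2 and -0.640 without replicate 3, 1.00 at promoters, -4.93 at distal summits and -2.99 without soft-masked summits. Among peaks ranked 15000 or higher the promoter difference was -4.83 and the soft-masked one 0.229 (3.67 over all peaks). The upstream share of promoter summits (difference 1.48, -7.63 to 9.92) was -0.0976 in those peaks, -4.45 without replicate 2 and -5.05 without replicate 3, all with intervals that include 0. Genes with a promoter peak gave -0.788 points with IDR peaks only. Restricting these genes to protein-coding 5′ ends has no value of its own, since only those were used. No paired analysis was possible because the 2 replicates form 1 group. The 16 IDR peaks limit what can be told of strong chromosome 4 sites, and read depth is unknown.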
